A study of Mus musculus with 2 samples.

Results

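S100 proteins are small calcium-binding proteins built around a pair of EF-hand motifs, the helix-loop-helix folds that hold calcium. Here 10 genes were taken by name, as S100A genes known from keratinocytes and stroma: S100a1, S100a3, S100a4, S100a6, S100a8, S100a9, S100a10, S100a11, S100a14 and S100a16. All 10 were present among the 21590 protein-coding entries that had a value in both libraries. The tissue was lingual epithelium of newborn mice (P0) of the Sox2GFP genotype, in which green fluorescent protein reports SOX2. SOX2 is a transcription factor needed for taste cells to form, and its level varies across the tongue surface. Epithelia from many pups were pooled, dissociated with enzymes and sorted by brightness, and about 100000 cells were taken for GFP-high and as many for GFP-low. The labels give both groups the same age, genotype and tissue. Dead and autofluorescent cells were gated out before the sort by GFP brightness, and markers of other cell types that the gates could hold are given beside the results. The labels list 1 RNA-seq library per population, so no difference below has a replicate check, a spread or a p-value. The deposited columns are headed as means, and each was read as the value of that 1 library.

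Levels are in FPKM, fragments set against transcript length and the mapped reads of the library, a scale that allows genes of different length to be compared. Sox2 itself had 112.3 FPKM in GFP-high and 59.0 FPKM in GFP-low, a 1.90-fold difference in the direction of the sort. The basal keratins Krt5 and Krt14, which define the epithelium, stood at 9667 and 6672 FPKM in GFP-high and at 10422 and 9635 FPKM in GFP-low. A gene was called higher in a population when it had at least 5 FPKM there and at least 1.5 times the FPKM of the other population. Because these are bulk samples, fewer cells of a type and less RNA per cell cannot be told apart in any of the values.

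On binding calcium, an S100 dimer opens a hydrophobic face and docks onto a partner protein, so most members work as calcium-dependent switches of annexins, cytoskeletal proteins and enzymes. Some are also released and act on receptors of other cells. In stratified epithelia several members are abundant in keratinocytes and sit at the membrane or under the forming cornified layer, S100a8 and S100a9 are best known from neutrophils and inflamed epithelium, and S100a4 is best known from fibroblasts and other motile cells.

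The 10 genes fell into an abundant group and a scarce group. S100a16, S100a11, S100a14, S100a6 and S100a10 each exceeded 500 FPKM in both libraries, and each had more FPKM in GFP-high. The other 5 genes stayed under 100 FPKM in both libraries and did not share a direction. Of the 10, 4 were called higher in GFP-high (S100a6, S100a9, S100a10 and S100a16) and 1 was called higher in GFP-low (S100a4). Among all 21590 entries the same rule called 4.72% higher in GFP-high and 4.44% higher in GFP-low. Among the 10760 entries with 5 FPKM or more in either library, which included 9 of the 10 genes, it called 9.48% and 8.9%. S100a8 was the member under that level. With no replicate and 10 genes, these shares are set side by side as a description.

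**Figure D1:**
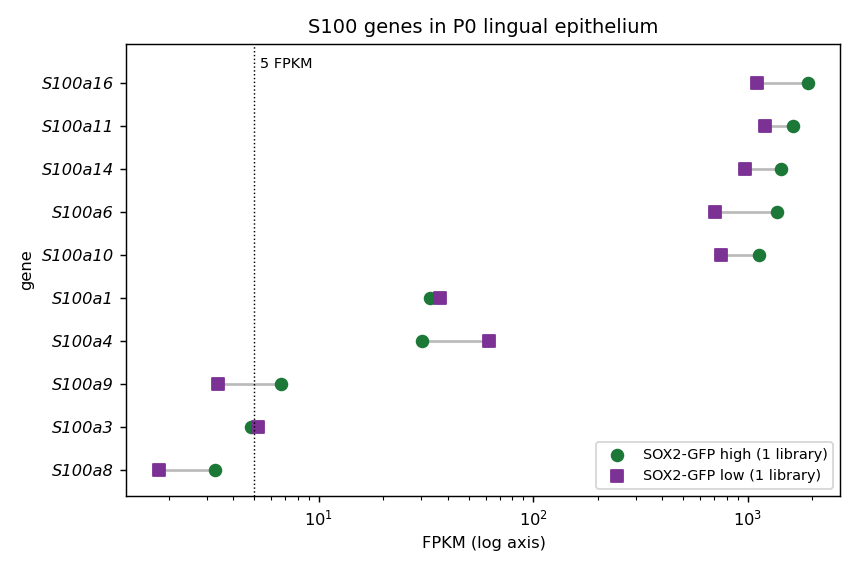
FPKM of the 10 S100 genes (log axis) in the GFP-high library (circles) and the GFP-low library (squares), ordered by the GFP-high value, with a grey line joining both values of a gene and a dotted line at 5 FPKM. The 5 abundant genes all have the circle to the right, from S100a16 at 1911 FPKM to S100a10 at 1126 FPKM, whereas S100a4 has it to the left.

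Together the 10 genes summed to 7549 FPKM in GFP-high and 4850 FPKM in GFP-low, a 1.56-fold difference. These sums were 0.705% and 0.485% of the FPKM of the whole library. The 5 abundant genes held 98.96% of the members' sum in GFP-high and 97.7% in GFP-low, so the family total describes them and not the scarce ones. The median difference in log2(FPKM + 1), GFP-high minus GFP-low, was 0.58 over the 10 genes, of which 7 had more FPKM in GFP-high. Over all 21590 entries that median was 0.0 and 36.5% had more FPKM in GFP-high. Over the entries with 5 FPKM or more in either library these values were -0.04 and 44.55%. Among all entries, 4312 were listed at 0 in both libraries and so had no direction.

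Abundant transcripts as a class leaned towards GFP-high in the FPKM as deposited. Of the 273 entries with 500 FPKM or more in either library, a level chosen after the values were seen, 60.1% had more FPKM in GFP-high and the median log2 difference was 0.09, which became -0.0033 when each library was divided by its FPKM sum. The rule called 15.4% of them higher in GFP-high and 8.42% higher in GFP-low. Among the 5 abundant S100 genes, 3 were called higher in GFP-high and none higher in GFP-low, with ratios between 1.34 and 1.96.

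The sequences just upstream of 4 members are given to show what lies at the genes that differed most and at the most abundant genes. Each is 100 bases on the plus strand of chromosome 3 (RefSeq, GRCm38, the mm10 build), ending before the earlier of the GENCODE and RefSeq starts and so outside any annotated exon. Positions of matches are counted from the RefSeq start, which for S100a11 and S100a6 lies a few bases beyond the end of the printed stretch. Capitals mark matches to the AP-1 letters TGANTCA, the SOX letters ACAANG, the FOX letters TGTTTNC or the TATA letters TATAAA on either strand. S100a16, at chr3:90537154-90537253, was the most abundant member in GFP-high. S100a11, at chr3:93520388-93520487, was the most abundant in GFP-low. S100a6, at chr3:90612782-90612881, had the largest ratio in favour of GFP-high. S100a4, at chr3:90603670-90603769, was the member called higher in GFP-low.
S100a16: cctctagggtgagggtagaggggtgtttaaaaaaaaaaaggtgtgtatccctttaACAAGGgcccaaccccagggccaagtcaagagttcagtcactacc
S100a11: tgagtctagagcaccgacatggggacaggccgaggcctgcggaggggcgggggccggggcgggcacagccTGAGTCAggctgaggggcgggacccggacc
S100a6: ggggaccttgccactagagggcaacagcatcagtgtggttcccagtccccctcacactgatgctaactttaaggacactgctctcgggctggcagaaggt
S100a4: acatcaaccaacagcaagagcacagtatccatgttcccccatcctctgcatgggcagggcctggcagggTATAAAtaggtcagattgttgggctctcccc

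The 4 sequences differ in composition and in the letters they hold. G and C made up 75.0% of the S100a11 bases, 57.0% of the S100a6 bases, 54.0% of the S100a4 bases and 49.0% of the S100a16 bases. S100a4 had TATAAA beginning 31 bases before its RefSeq start, and S100a11 had TGAGTCA beginning 38 bases before its own. The S100a6 stretch had no match to any of the 4 motifs.

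The same letters were searched in all 32851 RefSeq windows of 300 bases, each with 250 bases before and 50 after a start. For the S100 genes, 8 members had windows, 12 in all; S100a10 and S100a14 are named only. The AP-1 letters occurred in 7.81% of all windows and in 2 of the 12 S100 windows, those of S100a11, with matches beginning 136 and 38 bases upstream, and S100a16, in the window of another start, 192 bases upstream. The TATA letters occurred in 13.6% of all windows and in 4 of the 12, from S100a3, S100a4, S100a8 and S100a9. In S100a8 the match began 30 bases before the start. The SOX letters occurred in 41.2% of all windows and in 5 of the 12, from S100a3, S100a8, S100a9 and S100a16. The FOX letters occurred in 20.5% of all windows and in 2 of the 12, from S100a3 and S100a8. No matches to different motifs overlapped in the members' windows. A match is a description of letters, not a site. The members called higher in GFP-high that had a window were S100a6, S100a9 and S100a16. S100a6 had no match, so no motif could be common to all 3. S100a9 and S100a16 both had the SOX letters, as 41.2% of all windows had.

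S100a10 is an unusual member that is held in its active shape without calcium and forms a tetramer with annexin A2, linking membranes to actin and carrying channels such as TRPV6 to the cell surface. S100a10 had 1126 FPKM in GFP-high and 748 FPKM in GFP-low, which ranked it 89 and 131 among all entries. The ratio of 1.51 was just inside the rule, and it fell to 1.41 when each library was divided by its FPKM sum and to 1.47 when that sum left out the highest entries, so the call was lost under both scalings.

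Its partner differed in the same direction. Anxa2, encoding annexin A2, had 3559 FPKM in GFP-high and 2103 FPKM in GFP-low, a ratio of 1.69. Ahnak, a giant scaffold protein bound by the complex, had 203 FPKM in GFP-high and 131.4 FPKM in GFP-low, a ratio of 1.55. Both were called higher in GFP-high, the Ahnak call being lost at 1.45 after division by the FPKM sum, whereas the Trpv6 channel was close to absent, at 0.54 FPKM in GFP-high and 0.73 FPKM in GFP-low.

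S100a11 binds annexin A1 and, in keratinocytes, is cross-linked into the cornified envelope. It had 1622 FPKM in GFP-high and 1207 FPKM in GFP-low, a ratio of 1.34 that was not called. It ranked 55 in GFP-high and 69 in GFP-low. Of the 50-base windows in its annotated transcripts, 41.1% also occur in another annotated gene, and the processed pseudogene Gm12854 shares the most. Reads of S100a11 could therefore have been shared with another place. Anxa1, encoding annexin A1, had 2734 FPKM in GFP-high and 1555 FPKM in GFP-low, a ratio of 1.76 that was called higher in GFP-high. The annexin partner therefore passed the rule where S100a11 did not.

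S100a6, calcyclin, is a member linked to proliferating cells and binds CACYBP, SUGT1 and annexins A6 and A11. It had 1376 FPKM in GFP-high and 703 FPKM in GFP-low. The ratio of 1.96 was the highest of the 10 genes, and S100a6 moved from rank 140 in GFP-low to rank 68 in GFP-high. Of the partners, Cacybp had 53.3 FPKM in GFP-high and 52.5 FPKM in GFP-low, and Sugt1 had 39.1 and 38.8 FPKM. Anxa6 had 65.9 FPKM in GFP-high and 61.3 FPKM in GFP-low. Anxa11 had 52.6 FPKM in GFP-high and 75.3 FPKM in GFP-low, 1.43-fold more in GFP-low, and none of these 4 genes was called, although Anxa11 became a call higher in GFP-low after division by the FPKM sum.

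S100a14 and S100a16 are epithelial members with a weakened calcium loop whose genes lie side by side. S100a16 had 1911 FPKM in GFP-high and 1109 FPKM in GFP-low, a ratio of 1.72 that was called higher in GFP-high. S100a14 had 1437 FPKM in GFP-high and 974 FPKM in GFP-low. Its ratio of 1.48 was just outside the rule, and it became 1.52, and a call, when GFP-low was multiplied by the median ratio between both libraries. S100a10 and S100a14 therefore sat on either side of the threshold by less than the difference between scalings.

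The order of the abundant genes differed between the libraries. By FPKM, GFP-high had S100a16 first, then S100a11, S100a14, S100a6 and S100a10, and GFP-low had S100a11 first, then S100a16, S100a14, S100a10 and S100a6. S100a6 thus passed S100a10 only in GFP-high. Short transcripts gain FPKM from the length correction of the software. Without a 200-base correction, a check added after the data were seen, S100a11 moved from place 2 to 3 in GFP-high and from 1 to 2 in GFP-low, while S100a16 was first in both.

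**Figure D2:**
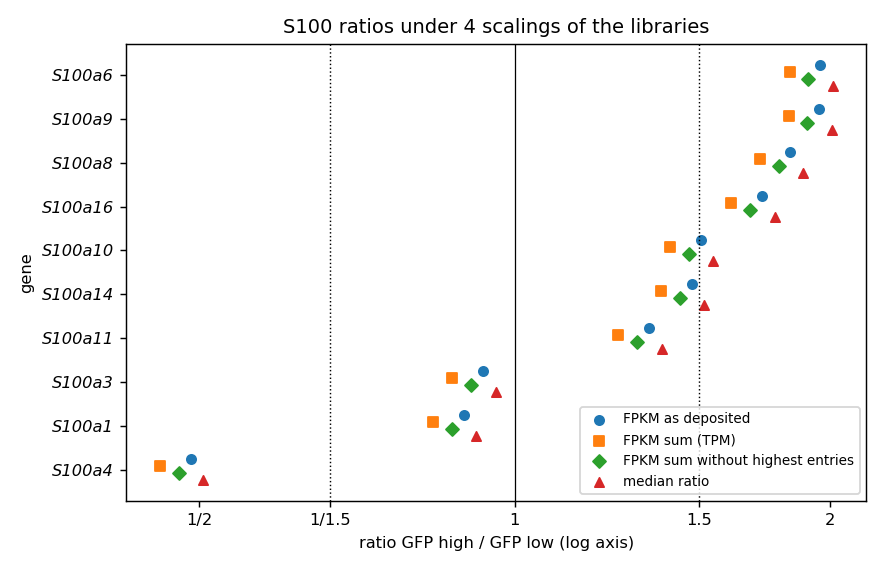
Ratio of GFP-high to GFP-low FPKM (log axis) of the 10 S100 genes as deposited and under 3 other scalings of the libraries, with dotted lines at 1.5-fold in either direction. No gene crosses a ratio of 1, and S100a10 and S100a14 are the genes whose markers fall on both sides of 1.5.

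Of 10 suprabasal keratinocyte markers, 9 had more FPKM in GFP-high, as the abundant S100 genes had. So had 8 of 9 taste bud markers and all 6 endothelial markers. All 7 basal keratinocyte markers had more FPKM in GFP-low, and in each of these lists some differences did not pass the rule. Of 10 suprabasal keratinocyte genes, 6 were called higher in GFP-high and none higher in GFP-low, with a median log2 difference of 1.04. They summed to 74579 FPKM in GFP-high and 32980 FPKM in GFP-low, with Krt13 the most abundant in GFP-high and Krtdap in GFP-low. Ivl was the lowest, at 0.67 FPKM in GFP-high and 2.19 FPKM in GFP-low. It was the 1 suprabasal gene with more FPKM in GFP-low. Of 7 basal keratinocyte genes, none was called higher in GFP-high and 1, Itgb4, was called higher in GFP-low, with a median of -0.38 and all 7 having more FPKM in GFP-low. After division by the FPKM sum the suprabasal Sbsn lost its call, at 1.47, and the basal Krt14 was called higher in GFP-low. The basal genes summed to 25796 FPKM in GFP-high and 32952 FPKM in GFP-low, with Krt5 the most abundant. Of 9 taste bud genes, 5 were called higher in GFP-high and none higher in GFP-low, with a median log2 difference of 1.10. The 9 genes summed to 555 FPKM in GFP-high and 178.2 FPKM in GFP-low. Lrmp was the most abundant in GFP-high and Krt18 in GFP-low. The 5 called taste bud genes, and Krt4 of the suprabasal list, were named by the study from these same libraries. Their direction is not independent evidence. No gene of the suprabasal, basal and taste bud lists was at 0. Of 6 endothelial genes, 1 (Pecam1) was called higher in GFP-high and all 6 had more FPKM there, with a median log2 difference of 0.61, sums of 33.6 and 23.1 FPKM, Egfl7 the most abundant and none at 0. The part of these cell types in the S100 differences was not tested.

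S100a4, metastasin, is abundant in fibroblasts and binds non-muscle myosin IIA. It had 30.5 FPKM in GFP-high and 62.1 FPKM in GFP-low, 2.04-fold more in GFP-low, and was the only one of the 10 genes called in that direction. This call was kept under each scaling, pseudocount and minimum tried. Of the 50-base windows in its annotated transcripts, 47.4% also belong to another annotated gene, and Gm42674 shares the most. Gm42674 overlaps S100a3 and S100a4 on the same strand and covers 302 of 584 exon bases of S100a4. The FPKM of S100a4 therefore depends on how such reads were assigned. Myh9, the heavy chain of non-muscle myosin IIA, had 191.2 FPKM in GFP-high and 245.9 FPKM in GFP-low and was not called, at 1.29-fold more in GFP-low.

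Fibroblast markers moved in the same direction as S100a4. Of 8 fibroblast genes, 6 were called higher in GFP-low and none higher in GFP-high, with a median log2 difference of -2.05. They summed to 506 FPKM in GFP-high and 2463 FPKM in GFP-low, 4.87-fold more, with Col3a1 the most abundant and none at 0. The S100a4 difference was smaller than that of the fibroblast sum. The part of fibroblasts in the S100a4 difference was not tested.

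S100a8 and S100a9 pair as calprotectin, which binds zinc and manganese as well as calcium and, once released, acts on the receptors AGER, TLR4 and BSG. Both genes were scarce in both libraries. S100a9 had 6.66 FPKM in GFP-high and 3.41 FPKM in GFP-low, a ratio of 1.95 that was called higher in GFP-high. The call requires 5 FPKM in the higher population only, and it was lost when 5 FPKM was required in each population. S100a8 had 3.30 FPKM in GFP-high and 1.8 FPKM in GFP-low, a ratio of 1.83 that could not be called at this level.

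Both ratios rest on few reads. An approximate depth read from the steps between low FPKM values puts S100a9 at about 58 reads in GFP-high and 38 in GFP-low, and S100a8 at about 26 and 18. The search for that depth covered only values below the 75000000 reads given by the labels, so it could not have reached them. A greater depth would raise these read numbers. Neutrophil markers were close to absent, with the small values leaning the same way. None of 11 neutrophil genes reached 5 FPKM, 8 had more FPKM in GFP-high and 1 in GFP-low, their sum was 5.38 FPKM in GFP-high and 3.74 FPKM in GFP-low, and the most abundant, Itgam, had 3.01 and 2.49 FPKM. Camp and Retnlg were listed at 0 in both libraries, Ly6g was at 0.05 FPKM in GFP-high and listed at 0 in GFP-low, and Elane was listed at 0 in GFP-high and at 0.04 FPKM in GFP-low. The part of neutrophils in the S100a8 and S100a9 ratios was not tested. Of the 7 macrophage and leukocyte genes in the table none was called, with sums of 18.7 FPKM in GFP-high and 21.2 FPKM in GFP-low, Cd68 the most abundant and the leukocyte marker Ptprc at 0.06 and 0.02 FPKM.

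Of the calprotectin receptors, 1 was called. Bsg was abundant and nearly even, at 644 FPKM in GFP-high and 657 FPKM in GFP-low. Ager, the receptor for advanced glycation end products, had 7.13 FPKM in GFP-high and 11.1 FPKM in GFP-low and was called higher in GFP-low, at 1.56-fold. Tlr4 was under 1 FPKM in both libraries, at 0.97 and 0.81 FPKM.

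Neither S100a1 nor S100a3 was called. S100a1, best known in heart and skeletal muscle as a regulator of calcium release, had 33.05 FPKM in GFP-high and 36.95 FPKM in GFP-low, 1.12-fold more in GFP-low. The 7 skeletal muscle genes summed to 21.02 FPKM in GFP-high and 20.7 FPKM in GFP-low, with Tnnt3 the most abundant in GFP-high and Acta1 in GFP-low, none at 0 and 1, Tnnt3, called higher in GFP-high. S100a3, a hair cuticle protein modified by the deiminase PADI3, had 4.86 FPKM in GFP-high and 5.21 FPKM in GFP-low, 1.07-fold more in GFP-low. Padi3 had 2.52 and 1.42 FPKM and was not called.

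The hair-type list, keratins and keratin-associated proteins with the hair regulator Hoxc13, was set beside S100a3. Several of its genes were named by the study from these same libraries, so its direction is not independent evidence. All 9 genes were called higher in GFP-low, with a median log2 difference of -3.24. They summed to 74.6 FPKM in GFP-high and 1627 FPKM in GFP-low, 21.8-fold more, with Krt84 the most abundant and none at 0. S100a3 had a 1.07-fold difference between the same libraries, on about 54 reads in GFP-high and 74 in GFP-low by the approximate depth.

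Over all 14 partners and receptors, 3 were called higher in GFP-high (Anxa1, Anxa2 and Ahnak) and 2 higher in GFP-low (Ager and S100pbp), with a median log2 difference of 0.02 that became -0.08 after division by the FPKM sum. S100pbp, which binds the human family member S100P, had 20.99 FPKM in GFP-high and 33.8 FPKM in GFP-low. After division by the FPKM sum the Ahnak call was lost and Anxa11 was called higher in GFP-low, so the counts became 2 and 3. As deposited, the calls were 21.4% and 14.3% of the 14 genes, beside 4.72% and 4.44% of all entries. Of entries with 5 FPKM or more in either library, a level that 11 of the 14 reached, the rule called 9.48% and 8.9%. Trpv6 was not called.

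**Figure D3:**
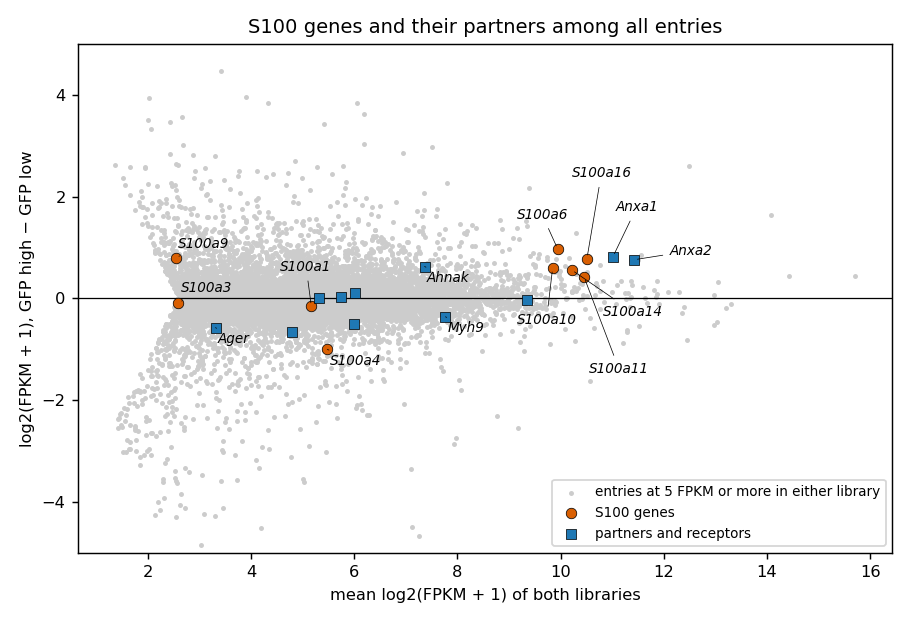
Difference in log2(FPKM + 1), GFP-high minus GFP-low, against the mean log2(FPKM + 1) of both libraries for the 10760 entries with 5 FPKM or more in either library (grey), with S100 genes as circles and their partners and receptors as squares. The 5 abundant S100 genes, Anxa1 and Anxa2 lie together above 0 at the right, and S100a4 lies below 0.

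Of 14 other EF-hand genes, 1 was called higher in GFP-high and 1 higher in GFP-low, 7.14% each, near the shares over all entries, with a median log2 difference of 0.07. Calml3, a calmodulin-like protein of epithelia, had 1430.5 FPKM in GFP-high and 315 FPKM in GFP-low, a ratio of 4.54, and was as abundant in GFP-high as S100a14. Calm4, another skin calmodulin, had 1098 FPKM in GFP-high and 949 FPKM in GFP-low and was not called. Calm5 was called higher in GFP-low, at 6.76 FPKM in GFP-high and 15.4 FPKM in GFP-low.

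The remaining members of the family were scarce. Of 7 other S100 genes looked for, 6 were in the table and none was called, with a median log2 difference of -0.08. S100a13 had 23.9 FPKM in GFP-high and 26.8 FPKM in GFP-low, and S100a7a had 5.56 and 5.51 FPKM. S100a5, S100g and S100z stayed under 1 FPKM in both libraries. S100a2, named after the values were seen, had 1.59 and 0.54 FPKM.

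S100b, the classic S100 protein of glia, had 0.12 FPKM in GFP-high and 3.44 FPKM in GFP-low, under the 5 FPKM needed for a call. Schwann lineage genes showed the same direction: 4 of 5 were called higher in GFP-low, with a median log2 difference of -3.07. They summed to 64.5 FPKM in GFP-high and 172.9 FPKM in GFP-low, with Erbb3 the most abundant in both and none at 0. Sox10 and Foxd3 of this list were likewise named by the study from these libraries. The part of Schwann lineage cells in the S100b values was not tested. Of 5 melanocyte genes none was called, with sums of 1.36 FPKM in GFP-high and 2.67 FPKM in GFP-low, Pmel the most abundant in GFP-high and Dct in GFP-low, Tyr listed at 0 in both libraries and Mlana listed at 0 in GFP-high.

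**Figure D4:**
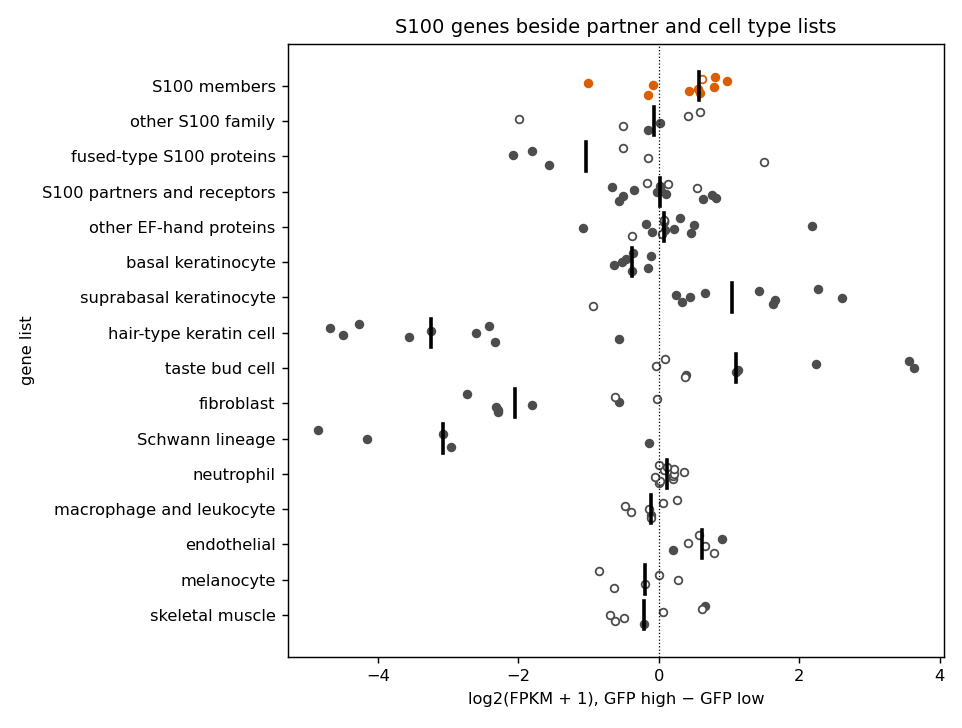
Difference in log2(FPKM + 1), GFP-high minus GFP-low, for each gene of the S100 members (orange), related calcium-binding proteins, partners and cell type lists, with a bar at the median of each list and open circles for genes under 5 FPKM in both libraries. The S100 median of 0.58 lies near the endothelial median of 0.61. It is below the taste bud median of 1.10 and the suprabasal keratinocyte median of 1.04, and above the basal keratinocyte median of -0.38.

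All 10 genes lie on chromosome 3, in 2 clusters. The first runs 184688 bases from S100a1 to S100a9 (chr3:90511034-90695721) and holds 12 entries of the table, all of them S100 genes. In it 3 genes were called higher in GFP-high and 1 higher in GFP-low. The second holds S100a11 and S100a10 within 44156 bases (chr3:93520488-93564643), and S100a10 was called there.

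Some neighbours in the first cluster were alike and others were not. S100a14 and S100a16 were both abundant with more FPKM in GFP-high, and S100a8 and S100a9 were both scarce with more FPKM in GFP-high. S100a4 and S100a6 are both on the plus strand, 6836 bases apart with S100a5 between them, yet S100a4 was called higher in GFP-low, S100a6 was called higher in GFP-high, and S100a5 was listed at 0 in GFP-high and at 0.43 FPKM in GFP-low. S100a1 and S100a13 are divergent neighbours with 42 bases between their annotated ends, at chr3:90514393-90514434, read here on the plus strand from RefSeq and shown because these genes had like values.
S100a1 and S100a13: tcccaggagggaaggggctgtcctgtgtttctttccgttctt
S100a1 had 1.12-fold and S100a13 also 1.12-fold more FPKM in GFP-low, and neither was called. None of the 4 motifs occurs in the bases between them.

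The stretch between both clusters holds the fused-type S100 genes, which join an S100 domain to long repeats in proteins of the cornified layer and hair. Of 6 in the table, 3 were called higher in GFP-low and none higher in GFP-high, with a median log2 difference of -1.04. Tchh, trichohyalin, had 30.0 FPKM in GFP-high and 107.9 FPKM in GFP-low, and Rptn, repetin, had 5.82 and 27.7 FPKM. Crnn, cornulin, had 8.08 FPKM in GFP-high and 25.9 FPKM in GFP-low. Flg2 had 2.58 FPKM in GFP-high and 0.27 FPKM in GFP-low, under the minimum for a call, and Hrnr and Tchhl1 were under 1 FPKM in both libraries. Tchh, Rptn and Crnn thus differed in the opposite direction to the 5 abundant S100 genes and in the same direction as the hair-type keratins, while Flg2 did not. The part of hair-type keratin cells in these differences was not tested.

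Over the 2.82 megabases between the clusters, 60 entries had a value, 12 of them with 5 FPKM or more in either library. Of those, 4 were called higher in GFP-high and 5 higher in GFP-low, beside 9.48% and 8.9% of all entries at that level.

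**Figure D5:**
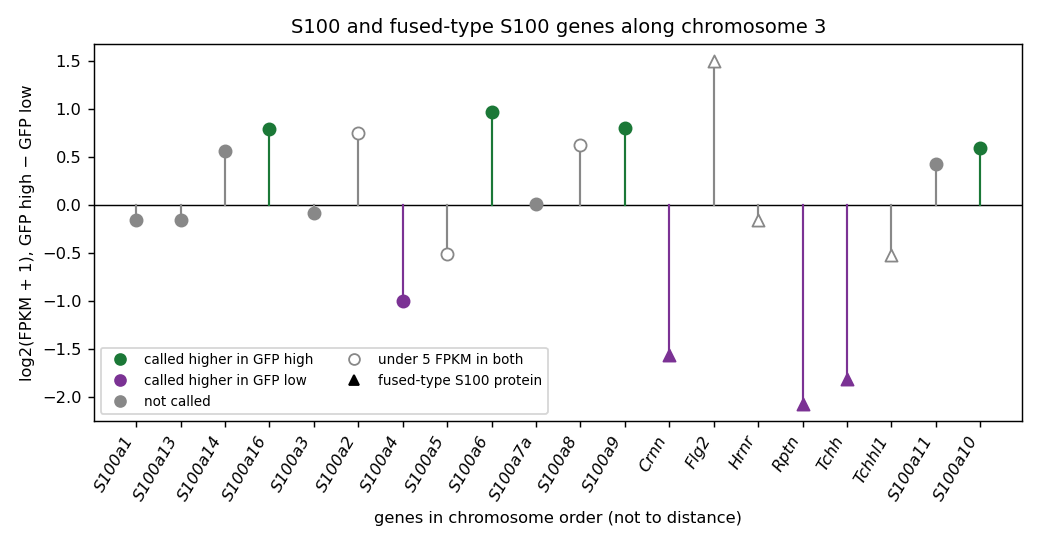
Difference in log2(FPKM + 1), GFP-high minus GFP-low, for S100 genes (circles) and fused-type S100 genes (triangles) in their order along chromosome 3, not drawn to distance, with colour for the call and open symbols for genes under 5 FPKM in both libraries. S100a16, S100a6, S100a9 and S100a10 rise above 0 as calls, S100a4 falls below 0, and Crnn, Rptn and Tchh fall below 0 between the clusters.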

How the data were processed

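RNA from about 100000 sorted cells per population was sequenced as 1 stranded library each, to about 75000000 reads per the labels. The authors trimmed reads with Trimmomatic 0.36, mapped them to mm10 with GSNAP and deposited FPKM from Cufflinks 2.2.1. The deposited fold change column holds the authors' own comparison and was not used. Of 21628 entries, 21 that GENCODE M21 lists as other than protein-coding and 17 without a number were left out. The 78 that were not in that annotation were not left out for that reason. Members and gene lists were chosen with earlier results of these data known, and the named genes are the members, the genes of those lists and the S100 genes of the clusters; 1 gene of the Schwann lineage list is not reported here. A call required 5 FPKM in the higher population and a ratio of 1.5, and log2 differences used a pseudocount of 1. Steps between low FPKM values placed depth near 27500000 reads in GFP-high and 35500000 in GFP-low. The search covered only depths below the depth given by the labels, so both values had to fall below it and do not test it. The approximate read numbers depend on which depth is taken. Only 64.1% and 60.4% of those low FPKM values lay within 0.15 of a whole read, so whole reads could not be restored, and no count model was used. Alternatives were 3 scalings, other pseudocounts and minimums, and a 2-fold threshold. Scripts used Python 3.11.15, numpy 2.4.6, pandas 2.3.3 and matplotlib 3.10.9 and were tested on simulated data.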

Additional observations from a re-analysis of the deposited data

How the results depend on the processing

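With 1 library per population, the alternatives describe processing only and not biological spread, and S100a3, S100a8 and S100a9 have few reads by an approximate depth. None of the 10 S100 genes followed changed direction under the 3 other scalings. S100a4 was the 1 gene called higher in GFP-low under each alternative. The number called higher in GFP-high, 4, became 3 after division by the FPKM sum (TPM) or by that sum without the highest entries, both without S100a10, and 5 after scaling by the median ratio, which added S100a14. It was 3 with a minimum of 10 FPKM or with 5 FPKM in each population, both without S100a9, and 5 with a minimum of 1 FPKM or none, which added S100a8. At 2-fold it was 0. The median log2 difference stayed between 0.48 and 0.62. Without the highest entries the members held 0.856% of the GFP-high and 0.565% of the GFP-low sum. Across all entries there were 1020 calls higher in GFP-high and 958 in GFP-low (51.6% higher in GFP-high). These became 826 and 1204 (40.7%) as TPM, and 1107 and 866 (56.1%) after scaling by the median ratio. They were 937 and 1039 (47.4%) with the sum without the highest entries. They were 1540 and 1563 with a minimum of 1 FPKM, and 3131 and 3248 with none. With 5 FPKM in each population they were 777 and 633, and at 2-fold 448 and 467. These moves follow from the rules' own construction. Over 10 genes and 10 alternatives, 100 calls of single genes were made again under another ratio or another rule: 89 did not differ, 3 became calls and 8 were lost.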
